A study of Mus musculus with 4 samples.

Results

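The clustered histone genes are the genes of the mouse histone gene clusters. They were taken here as every gene symbol beginning Hist1h, Hist2h, Hist3h or Hist4h, which gave 64 of the 23906 symbols measured. By class they comprised 6 H1, 16 H2a, 18 H2b, 11 H3 and 13 H4 genes, and by cluster 52 Hist1, 8 Hist2, 3 Hist3 and 1 Hist4 genes. Symbols listed at 0 were kept. The question put to these genes was how their levels differed between BMP-activated and non-BMP-activated cells and between the fetal and the adult organ.

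The RNA came from LSK-SLAM cells, a sorted population (negative for lineage antigens, Sca1+ cKit+ CD150+ CD48-) that is enriched for haematopoietic stem cells (HSCs). The cells came from BRE-GFP transgenic mice kept on a C57BL/6 background, in which a BMP-responsive element drives GFP, so that a GFP+ cell is one in which BMP signalling was active when it was isolated. All 4 groups carried the transgene and none received a treatment. The groups were GFP+ cells and GFP- cells of the fetal liver (FL) at embryonic day 14, and GFP+ cells and GFP- cells of the adult bone marrow (BM), with 1 sample in each. For the sequenced samples, the age of the adult mice and the number of animals are not stated in the sources used here, and the study's data are those of line 1 of independently derived transgenic lines. With 1 sample per group, no difference between single groups has a replicate check.

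Histones are the proteins around which DNA is wound. H2A, H2B, H3 and H4 form the nucleosome core, and H1 binds the linker DNA at its edge. The clustered genes lack introns for the most part, are transcribed chiefly in S phase to package newly made DNA, and yield mRNAs that end in a conserved stem-loop, bound by the protein Slbp, in place of a poly(A) tail. Histone variants such as H2afz and H3f3a come from genes outside the clusters, are made throughout the cell cycle and carry poly(A) tails. The libraries here were made with the SMARTer protocol, which starts cDNA synthesis at poly(A), and what share of the tail-less histone mRNA it captured was not tested.

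The stem-loop is shown first because it is the feature that marks the mRNAs of these genes. Of the 64 symbols, 63 had an annotated stop codon in GENCODE vM1 (build NCBIM37), and 60 of these carried the histone stem-loop pattern, a 16-base pattern read on the sense strand only, within 200 bases after it. The pattern was present in the same window of 10 of 21863 other protein-coding genes, or 0.0457%, among them the variant gene H2afx. The first stem base lay 22 to 59 bases after the stop codon, with a median of 31. In the forms below, 5′ to 3′, capitals mark the 6 stem bases on each side and lower case the 4-base loop.

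Stem-loop of 36 members of classes H1, H2a, H2b and H3, among them Hist1h1c: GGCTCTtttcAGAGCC
Stem-loop of 9 members of those classes, among them Hist1h3e: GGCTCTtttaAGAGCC
Stem-loop of 8 H4 members, among them Hist1h4d and Hist4h4: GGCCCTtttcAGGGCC
Stem-loop of the H4 members Hist1h4i and Hist2h4: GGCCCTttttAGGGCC
Stem-loop of the H4 members Hist1h4j and Hist1h4b: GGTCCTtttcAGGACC
Stem-loop of Hist1h3g: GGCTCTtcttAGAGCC
Stem-loop of Hist2h2ac: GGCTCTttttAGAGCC
Stem-loop of Hist1h4a: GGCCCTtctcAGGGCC

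The stem separated H4 from every other class. All 13 H4 genes had a stem beginning GGCCCT (11 genes) or GGTCCT (2 genes), whereas the stem of all 47 matched genes of the other classes began GGCTCT. The 3 genes without the pattern were Hist1h2an, Hist2h2be and Hist2h2bb. Their mean FPKM (fragments counted per length of transcript and per size of library, so that genes can be compared) over the 4 samples ranged from 4.01 to 8.01, against a median of 4.09 for the 60 genes with it. The poly(A) signal AATAAA, on the sense strand, was found within the last 50 bases of an annotated transcript in 11 of the 63 genes, including the H1 gene Hist1h1c, the H2a gene Hist1h2ae and the H2b gene Hist1h2bc. The 11 genes with AATAAA summed to 239.9, 228.1, 643.2 and 471.4 FPKM in FL GFP+, FL GFP-, BM GFP+ and BM GFP- cells, and the 52 without it to 480.7, 467.5, 1323 and 894.2 FPKM. Both sets were thus higher in both BM samples than in both FL samples.

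The promoters of these genes held the classical promoter elements more often than promoters at large. In RefSeq promoters of build GRCm38.p6, running from 250 bases before to 50 after a start site, 59 promoters of 58 members were found. On either strand, TATAAA was present in 57.6% of them against 13.6% of all 32851 promoters, and CCAAT in 84.7% against 37.4%. The octamer ATTTGCAT was present in 23.7% against 1.74%, and within the members it was held by 7 of 16 H2a and 7 of 16 H2b promoters and by none of the 6 H1, 9 H3 and 12 H4 promoters. CCAAT was in every H1, H2a, H2b and H3 promoter and in 3 of the 12 H4 promoters. The bases upstream of Hist1h1c, Hist1h4d and the Hist1h2ae-Hist1h2bg pair are given below, 5′ to 3′ on the plus strand, because these are high members of 4 classes and the pair shares 1 interval between opposite start sites. Capitals mark matches to these 3 motifs, of which CCAAT reads as ATTGG where it lies on the minus strand.

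Hist1h1c, 250 bases before the start, chr13:23738557-23738806: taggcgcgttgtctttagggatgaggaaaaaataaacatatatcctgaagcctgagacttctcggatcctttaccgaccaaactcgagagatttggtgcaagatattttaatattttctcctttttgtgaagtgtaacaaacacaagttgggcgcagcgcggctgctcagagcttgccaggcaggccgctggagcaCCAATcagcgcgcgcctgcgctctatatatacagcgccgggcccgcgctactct
Hist1h4d, 250 bases before the start, chr13:23581318-23581567: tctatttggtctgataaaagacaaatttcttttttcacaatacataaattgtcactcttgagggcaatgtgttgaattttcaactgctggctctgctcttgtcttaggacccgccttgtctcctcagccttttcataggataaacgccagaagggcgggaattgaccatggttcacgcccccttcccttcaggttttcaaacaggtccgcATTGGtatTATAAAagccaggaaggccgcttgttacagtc
Hist1h2ae and Hist1h2bg, the 179 bases between their start sites, chr13:23571221-23571399: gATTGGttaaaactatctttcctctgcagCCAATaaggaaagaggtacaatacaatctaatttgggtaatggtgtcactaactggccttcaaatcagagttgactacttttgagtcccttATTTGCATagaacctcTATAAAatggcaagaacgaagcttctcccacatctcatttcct

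The labels were checked against marker genes before any comparison, and the BM GFP+ library stood apart. All 8 fetal genes examined, Igf2bp1 and H19 among them, were more than 2-fold higher in the FL than in the BM in both fractions, in the direction of the labels, but 6 BMP target genes gave no single direction for GFP. Id1 was higher in the GFP+ sample of each tissue, at 109.1, 56.5, 70.4 and 17.5 FPKM in the order FL GFP+, FL GFP-, BM GFP+, BM GFP-, though under 2-fold in the FL. Bambi was more than 2-fold lower in the GFP+ sample of each tissue, at 0.0145, 1.20, 1.31 and 4.49 FPKM, and Id3 was level in the FL at 96.6 and 97.0 FPKM. Between the BM fractions 4 of the 6 (Id1, Id2, Id3 and Smad7) were more than 2-fold higher in GFP+ cells and 1, Bambi, in GFP- cells. Between the FL fractions these numbers were 0 and 1. Of the LSK-SLAM markers, Kit was at 102.3, 150.3, 22.2 and 76.6 FPKM in FL GFP+, FL GFP-, BM GFP+ and BM GFP- cells, and Procr, at 60.8 FPKM or more in the other samples, was listed at 0 in BM GFP+ cells. Ly6a, which encodes the sort marker Sca1, was by contrast highest there, at 19.7, 46.3, 286.2 and 145.5 FPKM. Cd48, which the sort selects against, stood at 51.4, 17.4, 266.8 and 126.5 FPKM in FL GFP+, FL GFP-, BM GFP+ and BM GFP- cells. Summed by list, markers of blood lineages were higher in the BM, but single genes ran the other way. The megakaryocyte markers Gp9 and Vwf were higher in both FL samples than in both BM samples. Epor and Ermap of the erythroid list were higher in FL GFP+ than in BM GFP+ cells. The summed level of 9 granulocyte markers was 310.5 to 587.4 FPKM in the FL samples, against 17455 (GFP-) and 62271 (GFP+) in the BM. The 8 erythroid markers summed to 908.0 to 1005, 2849 and 20432 FPKM, and the 6 B cell markers to 41.9 to 96.3, 874.0 and 3356 FPKM. Pax5 and Ebf1 of B cells and Cd3e, Cd3g and Cd2 of T cells were at 0 in both FL samples, and no granulocyte, erythroid, B cell or T cell marker was at 0 in a BM sample. The 5 T cell markers summed to 8.90 to 10.8 FPKM in the FL samples, against 82.0 (GFP-) and 248.9 (GFP+) in the BM, the 6 macrophage markers to 38.3 to 53.4, 98.8 and 263.5 FPKM, and the 5 megakaryocyte markers to 61.9 to 71.7, 437.0 and 343.7 FPKM. The 5 hepatocyte markers ran the other way, with 326.7 and 23.7 FPKM in the FL fractions (GFP+ first) and 13.3 and 5.93 FPKM in the BM fractions. These values move with the tissue comparison and with the BM GFP comparison below, and their part in the histone results was not tested. The FL GFP+ against FL GFP- and the FL GFP- against BM GFP- comparisons do not use the BM GFP+ library, but their samples also differed in marker sums. Granulocyte markers were at 310.5 FPKM in FL GFP- and 17455 FPKM in BM GFP- cells. Hepatocyte markers were at 326.7 FPKM in FL GFP+ and 23.7 FPKM in FL GFP- cells.

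The clustered histone genes summed to 720.6, 695.5, 1966 and 1366 FPKM, the samples being taken in the order FL GFP+, FL GFP-, BM GFP+, BM GFP-. As a share of all FPKM in the sample this was 0.111%, 0.128%, 0.196% and 0.187%, so both BM samples were above both FL samples on this measure as well. Of the 64 genes, 42, 46, 49 and 57 were above 0 in these samples, and 34 were above 0 in all 4. The 5 highest genes held 49.1% to 55.9% of the sum in each sample. Genes listed at 0 in every sample were Hist1h2br, Hist1h1t, Hist1h4n, Hist1h2ba and Hist2h3c1, of which Hist1h1t and Hist1h2ba encode testis histones. A 0 here cannot separate an absent transcript from one that was missed, as the files hold no read counts. Many of these genes are near copies. Of the 52 with a value, 42 shared at least 95% of their coding bases with another annotated clustered histone gene of their class. Some partners lie outside the 64 symbols: Hist1h2ao, Hist1h2br and Hist2h2aa2 had the coding sequence of Hist1h2ap, Hist1h2bq and Hist2h2aa1. Within the 64, Hist1h4m and Hist1h4n had the same coding sequence, so reads from it could belong to either. The split of reads among single genes is therefore uncertain. Sums over a class are less exposed to a split between members, but would not hold reads given to copies outside the 64.

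**Figure D1:**
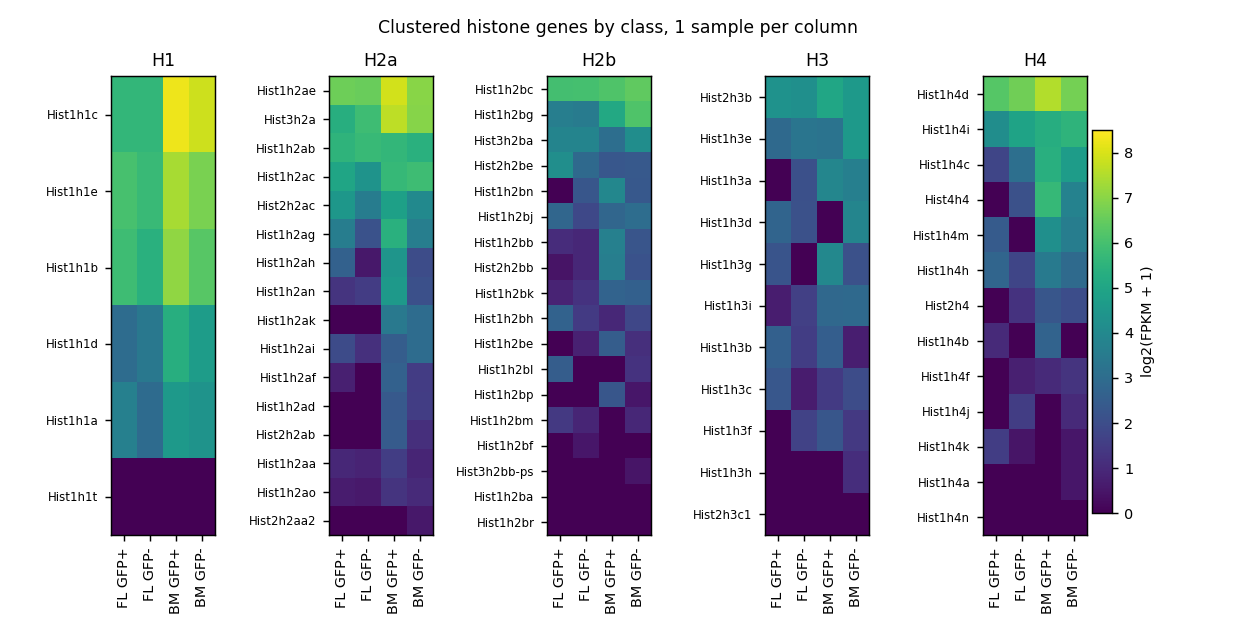
Level of each of the 64 clustered histone genes as log2(FPKM + 1), with 1 panel per class, genes in order of their mean and 1 column per sample. Hist1h1c, Hist1h2ae and Hist1h4d head their classes, and the right-hand pair of columns (BM) is brighter than the left-hand pair (FL) for all 5 H1 genes that were above 0.

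The levels were concentrated in a few genes of each class. Among the linker histones, Hist1h1c was the highest of all 64 genes by mean (158.4 FPKM), followed in the class by Hist1h1e and Hist1h1b, at 98.5 and 77.3 FPKM. The highest H2a genes were Hist1h2ae, Hist3h2a and Hist1h2ab, with means of 140.0, 105.2 and 46.7 FPKM, and the highest H2b genes were Hist1h2bc, Hist1h2bg and Hist3h2ba, at 69.3, 31.3 and 12.8 FPKM. In H3 they were Hist2h3b, Hist1h3e and Hist1h3a, at 22.8, 11.5 and 7.26 FPKM, and in H4 Hist1h4d, Hist1h4i and Hist1h4c, at 116, 32.4 and 18.8 FPKM. H3 thus had no gene near the level of the leading genes of the other classes. The classes that form 1 nucleosome core were not at equal summed levels: in FL GFP+ cells H2a summed to 256.8, H2b to 122.8, H3 to 44.5 and H4 to 107.7 FPKM.

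The first comparison asked how the genes differed between FL and BM, and the BM was the higher for most. In GFP+ cells 34 of the 64 genes were more than 2-fold higher in BM and 7 were more than 2-fold higher in FL (a gene counted when the higher value was over 2 times the lower and at least 1 FPKM). Over all symbols the same rule called 17% and 12.7%. In GFP- cells 33 genes were higher in BM and 1, Hist1h3b, was higher in FL, against 9.87% and 10.3% of all symbols. Among the 12022 symbols with a mean of at least 1 FPKM, which took in 49 of the histone genes, 32 of the 49 were higher in BM between GFP+ samples (30.6% of all such symbols) and 30 between GFP- samples (16.9%), while 5 and 1 were higher in FL (23.6% and 15.7%). The median log2(FPKM + 1) ratio of FL over BM for the 64 genes was -0.96 in GFP+ and -0.66 in GFP- cells, while the median of all symbols was 0 in both. In such bulk samples, fewer cells that express a gene and less of its RNA per cell cannot be told apart.

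The samples themselves showed the same separation. Both BM samples were above both FL samples for 36 of the 64 genes, where 16.7% of all symbols behaved so, and both FL samples were above both BM samples for 1 gene, Hist2h2be, where 12.4% of all symbols did. Of the 49 genes with a mean of at least 1 FPKM these were 34 and 1, against 27.4% and 21.3% of such symbols. By class, the BM samples lay above the FL samples for 5 of 6 H1, 11 of 16 H2a, 9 of 18 H2b, 3 of 11 H3 and 8 of 13 H4 genes. When the samples were rescaled to equal FPKM totals the count was 28, all of them among the 36, against 10.3% of all symbols, and 4 genes then lay higher in both FL samples. That rescaling moved the median log2 ratio of symbols with a mean of at least 1 FPKM by 0.46 in GFP+ and 0.36 in GFP- cells towards FL.

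H1 showed the widest tissue difference by sum. Its 6 genes summed to 188.8 and 159.8 FPKM in the FL fractions (GFP+ first) and to 671.5 and 458.9 FPKM in the BM fractions, which was 3.56-fold higher in BM for GFP+ and 2.87-fold for GFP- cells. H1 accounted for 23.0% to 26.2% of the histone sum in the FL and 33.6% to 34.2% in the BM. H4 sums were 107.7, 147.3, 351.2 and 211.2 FPKM in the same order of samples, 3.26-fold and 1.43-fold higher in BM. H2a sums were 256.8, 242.4, 683.9 and 403.9 FPKM, 2.66-fold and 1.67-fold higher in BM. H3 sums were 44.5, 39.7, 85.6 and 86.6 FPKM, 1.92-fold and 2.18-fold higher, and H2b sums were 122.8, 106.2, 173.8 and 205.4 FPKM, 1.42-fold and 1.93-fold higher. At equal FPKM totals the H1 difference was 2.30-fold and 2.13-fold, whereas H2b in GFP+ cells turned to 1.09-fold higher in FL, and each other class stayed higher in BM.

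**Figure D2:**
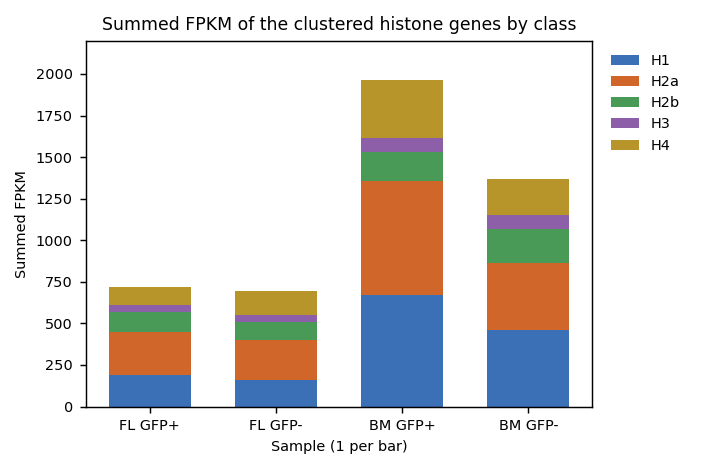
Summed FPKM of the clustered histone genes in each of the 4 samples (1 sample per bar), stacked by class. The bars reach 720.6, 695.5, 1966 and 1366 FPKM, and the H1 segment grows from 188.8 and 159.8 in the FL samples to 671.5 and 458.9 in the BM samples.

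Hist1h1c, a linker histone gene at chr13:23830676-23832235 of NCBIM37, carried the largest part of the H1 difference. Its FPKM was 48.7 and 49.0 in the FL fractions (GFP+ first) and 308.0 and 227.8 in the BM fractions. The FL samples were nearly equal and the BM samples were 6.33-fold (GFP+) and 4.65-fold (GFP-) above them. In a limma fit over all 4 samples, with GFP fraction as a block and 1 residual degree of freedom, the FL minus BM difference of Hist1h1c was -2.42 (SE 0.35) on the log2(FPKM + 1) scale, with a Benjamini-Hochberg adjusted p of 0.00592. Over the other settings the smallest adjusted p by limma of any histone gene ranged from 0.0104 to 0.237, and it missed 0.05 only without the mean-variance trend. Which gene gave that smallest value was kept for the first fit alone. In that first fit Hist1h1c was the only one of the 49 histone genes tested that passed, where 2.6% of the 12022 genes did. At an unadjusted p under 0.05, limma called 14 of the 49, all lower in FL, against 15.6% of genes tested. At equal FPKM totals limma called 8 of 48, beside 1989 of 12097 genes, so this count did not stand above the background under that scaling.

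The other H1 genes followed the same direction. Hist1h1e stood at 64.5, 53.2, 166.4 and 110.0 FPKM in FL GFP+, FL GFP-, BM GFP+ and BM GFP- cells, and Hist1h1d at 6.99, 9.52, 39.2 and 24.9 FPKM. Both were more than 2-fold higher in BM in both fractions, although the adjusted p by limma was 0.153 for Hist1h1e and 0.223 for Hist1h1d. Hist1h1b stood at 56.5, 41.3, 134.6 and 76.7 FPKM, 2.38-fold higher in BM GFP+ and 1.86-fold in BM GFP- cells. Hist1h1a, at 12.1, 6.81, 23.3 and 19.4 FPKM, was the lowest of the 5 above 0.

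In all, 23 of the 64 genes were more than 2-fold higher in BM in both fractions, where 5.61% of all symbols were (10.8% of those with a mean of at least 1 FPKM), and none was higher in FL in both, where 3.61% were (7%). At equal totals 16 of the 23 remained, and Hist1h1d, Hist1h1e, Hist1h2ao, Hist1h2bg, Hist1h4f, Hist2h4 and Hist3h2a left, while Hist2h2be then counted as higher in FL in both. The 23 comprised 3 H1, 8 H2a, 4 H2b, 3 H3 and 5 H4 genes. Of the H2a genes, Hist3h2a, a core histone gene of the small Hist3 cluster, stood at 39.0, 57.5, 200.5 and 123.9 FPKM in the order FL GFP+, FL GFP-, BM GFP+ and BM GFP-, with a limma difference of -1.71 (SE 0.42, adjusted p = 0.0716). Hist1h2ak was listed at 0 in both FL samples and at 9.88 and 7.08 FPKM in the BM samples. Hist1h2ad and Hist2h2ab were also at 0 in both FL samples, at 4.17 and 1.92 and at 4.37 and 1.19 FPKM in BM GFP+ and BM GFP- cells. Hist1h2af was at 0.667, 0, 5.25 and 1.82 FPKM and Hist1h2ao at 0.552, 0.483, 1.45 and 1.014 FPKM. For these low members a 0 in the FL may be a missed transcript as well as an absent one.

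The H2b genes of this set were Hist1h2bg, Hist1h2bb, Hist1h2bk and Hist2h2bb. Hist1h2bg had 11.3, 10.5, 33.7 and 69.8 FPKM, so that its highest sample was BM GFP-, whereas most of the set peaked in BM GFP+. Hist1h2bb had 1.12, 0.943, 11.9 and 3.76 FPKM, Hist2h2bb had 0.371, 0.934, 11.3 and 3.39 FPKM, and Hist1h2bk had 0.801, 1.37, 5.51 and 5.14 FPKM. The H3 genes of the set had low values in the FL. Hist1h3a was at 0, 3.24, 14.1 and 11.8 FPKM, Hist1h3i at 0.592, 2.06, 6.37 and 6.46 FPKM, and Hist1h3g at 3.63, 0, 14.5 and 3.29 FPKM. All H3 genes of the cluster encode a core histone that carries the modified lysines used as chromatin marks.

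Among H4 genes, Hist4h4 had the widest range on the log2(FPKM + 1) scale. It is the only member of Hist4 (chr6:136752589-136752900, NCBIM37) and was at 0 and 3.36 FPKM in the FL fractions (GFP+ first) and at 51.3 and 12.6 FPKM in the BM fractions. Hist1h4c was at 2.44, 7.68, 40.1 and 25.1 FPKM, 16.4-fold higher in BM GFP+ and 3.27-fold in BM GFP- cells. The adjusted p by limma was 0.137 for each. Hist1h4m was at 4.39, 0, 17.9 and 11.1 FPKM, Hist2h4 at 0, 1.39, 3.80 and 2.99 FPKM, and Hist1h4f at 0, 0.664, 1.04 and 1.41 FPKM. The most abundant H4 gene, Hist1h4d, differed less: 75.1, 99.8, 183.4 and 104.5 FPKM, or 2.44-fold between the GFP+ samples and 1.05-fold between the GFP- samples.

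Several abundant genes were less than 2-fold apart between tissues in both fractions. Hist1h2ab, an H2a gene, was at 45.1, 52.0, 48.1 and 41.5 FPKM, and its samples from the FL and the BM overlapped. Hist1h2bc, the highest H2b gene, was at 60.8, 62.4, 70.1 and 84.0 FPKM, 1.15-fold and 1.35-fold higher in BM. Hist2h3b, the highest H3 gene, was at 19.2, 17.7, 31.8 and 22.6 FPKM, 1.66-fold and 1.28-fold higher in BM. Hist1h4i, the H4 gene next to Hist1h4d in level, was at 17.1, 29.7, 37.9 and 45.0 FPKM, past 2-fold only between the GFP+ samples, and the H3 gene Hist1h3e was at 6.43, 8.77, 8.48 and 22.4 FPKM, past 2-fold only between the GFP- samples. Hist3h2ba, an H2b gene, was at 13.2, 13.4, 7.48 and 17.0 FPKM and overlapped between tissues. Hist2h2be, an H2b gene without the stem-loop pattern, ran the other way at 17.4, 6.52, 3.98 and 4.14 FPKM, 4.37-fold higher in FL GFP+ than in BM GFP+ and 1.58-fold higher in FL GFP- than in BM GFP- cells.

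By cluster, Hist1 held 82.6% to 85.1% of the histone sum in each sample, with 609.7, 583.8, 1624 and 1162 FPKM. Its 52 genes lie on chromosome 13 in 4 stretches set apart by more than 100000 bases. The stretch from 23622919 to 23856283 (NCBIM37), with 29 genes that include Hist1h1c, Hist1h2ae and Hist1h4d, held 65.9% to 70.8% of the histone sum. The stretch from 21807632 to 21929399, with 16 genes, summed to 74.5, 54.0, 215.4 and 122.1 FPKM, and that from 22126982 to 22135545, with 5 genes, to 40.3, 37.6, 110.7 and 71.7 FPKM. Each of these 3 stretches was thus higher in both BM samples than in both FL samples. The Hist3 cluster on chromosome 11 summed to 52.3, 71.0, 208.0 and 141.3 FPKM, nearly all from Hist3h2a, and the pseudogene of that cluster, Hist3h2bb-ps, was above 0 only in BM GFP- cells (0.383 FPKM). The Hist2 cluster summed to 58.7, 37.4, 82.7 and 50.3 FPKM, and its samples overlapped between tissues. Of the remaining Hist2 genes, Hist2h2ac was at 21.7, 10.9, 27.4 and 15.5 FPKM and Hist2h2aa2 was above 0 only in BM GFP- cells (0.450 FPKM).

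Most neighbours that share an interval differed in mean level. There were 11 divergent pairs of 1 H2a and 1 H2b gene with start sites 172 to 305 bases apart, and the H2a gene had the higher mean in 9. The means differed by more than 2-fold in 9 of the 11 pairs, 1 of them with the H2b gene (Hist1h2ba) at 0 in every sample and 1 with the H2b pseudogene Hist3h2bb-ps. The like share for H2a and H2b genes that are not neighbours was not computed. Hist1h2ae and Hist1h2bg, whose shared interval is printed above, differed 4.47-fold by mean, with Hist1h2ae at 96.9, 94.1, 241.4 and 127.5 FPKM in FL GFP+, FL GFP-, BM GFP+ and BM GFP- cells. In the BM this pair also ordered the fractions in opposite ways, Hist1h2ae being 1.89-fold higher in GFP+ and Hist1h2bg 2.07-fold higher in GFP- cells. Hist1h2ac and Hist1h2bc, both abundant, differed 1.75-fold in the other sense, with Hist1h2bc the higher.

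The second comparison asked how the genes differed between GFP+ and GFP- cells within a tissue, which addresses BMP activation. The GFP+ sample had the higher histone sum, by 1.04-fold among FL cells and by 1.44-fold among BM cells. Between the FL fractions 15 genes were past 2-fold in favour of GFP+ and 8 in favour of GFP-, against 9.08% and 13.6% of all symbols. Between the BM fractions the numbers were 17 and 8, against 10.9% and 10.2%. Among genes with a mean of at least 1 FPKM they were 13 and 7 of 49 in the FL (16.7% and 21.4% of all such symbols) and 17 and 6 of 49 in the BM (19.1% and 16.8%). The median log2(FPKM + 1) ratio of GFP+ over GFP- was 0 for the FL samples and 0.26 for the BM samples, with a median of 0 over all symbols in each. The BM median was also 0 at equal FPKM totals. Rescaling changed this balance in the FL, and in the BM at equal FPKM totals. At equal FPKM totals the counts were 12 and 11 for the FL samples, 14 and 10 for the BM samples, the FL sum was 1.15-fold higher in GFP- cells and the BM sum 1.05-fold higher in GFP+ cells. With equal upper quartiles the FL counts were 11 and 10 and the FL sum was 1.13-fold higher in GFP- cells. The BM counts then stayed at 17 and 8, and the BM sum was 1.34-fold higher in GFP+ cells. Over symbols with a mean of at least 1 FPKM, the BM median log2 ratio was -0.29 at equal totals and 0 at equal upper quartiles.

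**Figure D3:**
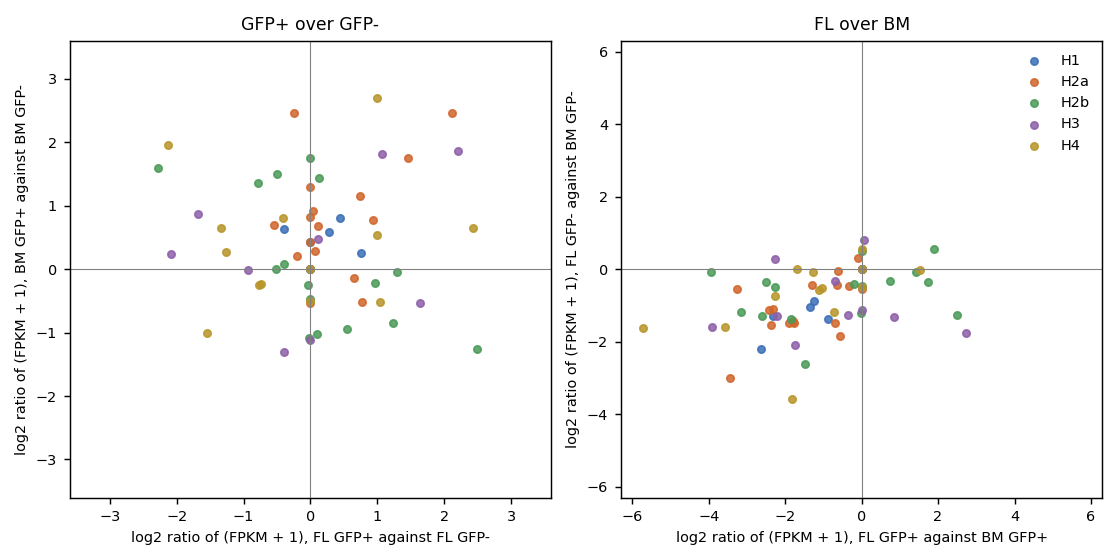
log2 ratios of (FPKM + 1) for the 64 clustered histone genes, 1 point per gene coloured by class, with GFP+ over GFP- in FL (x) against BM (y) on the left and FL over BM in GFP+ (x) against GFP- cells (y) on the right. Points on the left lie in every quadrant, whereas on the right 44 of the 64 lie below 0 on x and 52 below 0 on y.

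The classes are described by their split between the fractions of the BM, beside 10.9% (GFP+) and 10.2% (GFP-) of all symbols past 2-fold, or 19.1% and 16.8% of those with a mean of at least 1 FPKM. Differences between classes were not tested. In H2a 7 of 16 genes were more than 2-fold higher in BM GFP+ and none in BM GFP- cells, and the H2a sum was 1.69-fold higher in GFP+ cells. No H1 gene passed 2-fold in either tissue, but the H1 sum was 1.46-fold and the H4 sum 1.66-fold higher in BM GFP+ cells. H2b had 5 genes higher in BM GFP+ and 4 higher in BM GFP- cells, and its sum was 1.18-fold higher in GFP- cells. H3 had 3 each way and sums that differed 1.012-fold. At equal totals H2a, H4 and H1 were 1.23-fold, 1.21-fold and 1.07-fold higher in GFP+ cells, while H2b and H3 were 1.62-fold and 1.39-fold higher in GFP- cells, so that H3 was no longer near equality. In the FL the sums of H1, H2a, H2b and H3 were 1.06-fold to 1.18-fold higher in GFP+ cells and that of H4 was 1.37-fold higher in GFP- cells, and at equal totals all 5 were higher in GFP- cells. BM GFP+ is the library whose marker genes stood apart, and the BM comparison has no counterpart without it.

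Both tissues gave the same direction past 2-fold for 6 genes. Past 2-fold and higher in GFP+ cells of both FL and BM were 5 of the 64 genes, where 1.57% of all symbols were (3.1% of those with a mean of at least 1 FPKM), and higher in GFP- cells of both was 1 gene, where 2.96% were (5.09%). Hist1h2ag and Hist1h2ah, both H2a genes of the stretch from 22126982 to 22135545, were in the first set. Hist1h2ag was at 11.2 and 3.45 FPKM in the FL fractions (GFP+ first) and 40.8 and 11.4 FPKM in the BM fractions, 3.25-fold and 3.57-fold higher in GFP+ cells. Hist1h2ah was at 5.24, 0.445, 20.5 and 2.90 FPKM, 11.8-fold and 7.08-fold higher in GFP+ cells. Each of the pair was therefore highest in BM GFP+ and lowest in FL GFP- cells.

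The other genes of the set were the H3 genes Hist1h3b and Hist1h3g and the H4 gene Hist1h4b. Hist1h3b was at 5.07, 1.90, 4.79 and 0.649 FPKM, 2.66-fold and 7.37-fold higher in GFP+ cells. Of the 5 genes, Hist1h2ag alone had both BM samples above both FL samples. Hist1h3g was listed at 0 in FL GFP- cells and was 4.41-fold higher in BM GFP+ than in BM GFP- cells. Hist1h4b was listed at 0 in both GFP- samples and at 1.003 and 5.50 FPKM in the GFP+ samples, so its FL value lay at the minimum, and with equal upper quartiles it left the set. Hist1h4j, the gene higher in GFP- cells, was at 0 in both GFP+ samples and at 1.92 and 1.004 FPKM in the GFP- samples.

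No clustered histone gene reached significance for the GFP effect. limma with tissue as a block called 0 of the 49 histone genes at an adjusted p under 0.05, where 0.133% of the genes tested passed, and 2 at an unadjusted p under 0.05, where 5.19% did. These were Hist1h2ah, with a GFP+ minus GFP- difference of 2.29 (SE 0.95, adjusted p = 0.934), and Hist1h2ag, with 1.60 (SE 0.71, adjusted p = 0.956), both on the log2(FPKM + 1) scale. The other settings of limma also called 0 after adjustment, and 0 to 3 before it. Both GFP+ samples were above both GFP- samples for 6 of the 64 genes (7.55% of all symbols, 14.2% of those with a mean of at least 1 FPKM) and both GFP- samples above both GFP+ samples for 3 (14.3% and 12.6%). The shares of the members, 9.38% and 4.69%, were close to the first background and below the second.

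The proteins that make, process and deposit histones were set beside the clustered genes, as were genes of the cell cycle. The 30 S phase genes summed to 2792, 2494, 2524 and 2742 FPKM in FL GFP+, FL GFP-, BM GFP+ and BM GFP- cells, a range in which the tissues overlapped. Past 2-fold, 8 of the 30 were higher in FL and 2 in BM between the GFP+ samples, and 1 was higher on each side of the GFP- comparison. Of all symbols with a mean of at least 1 FPKM, which took in all 30, 23.6% and 30.6% were so called between the GFP+ samples. Between the GFP- samples the shares were 15.7% and 16.9%, and these shares also stand beside the lists that follow. The median log2 ratio of FL over BM was 0.47 and -0.02 for the S phase genes, against -0.96 and -0.66 for all 64 clustered histone genes. For the 49 histone genes with a mean of at least 1 FPKM it was -1.70 and -1.18. The 16 genes of G2 and M phase summed to 1096, 1146, 1592 and 957.7 FPKM, with 2 higher in FL and 3 in BM among GFP+ samples and 2 and 0 among GFP- samples. Pole, a subunit of a replicative DNA polymerase, and Cenpf, a kinetochore protein, were the cell cycle genes more than 2-fold higher in FL in both fractions.

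**Figure D4:**
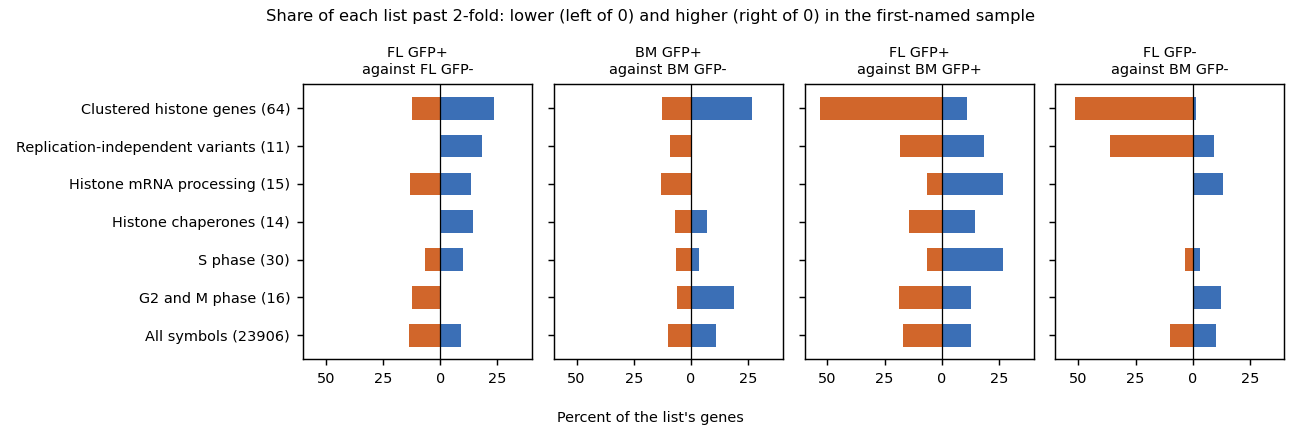
Percent of the genes of each list that were past 2-fold in each of the 4 comparisons, with bars to the right for genes higher in the first-named sample and to the left for genes lower in it (gene number of each list in parentheses). The clustered histone genes reach 53.1% and 51.6% to the left in the FL against BM comparisons, and the S phase genes 6.67% and 3.33%.

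Variants made outside the clusters gave a mixed picture. The 11 replication-independent variant genes summed to 3793, 2989, 6383 and 4696 FPKM, above the clustered genes in every sample. Past 2-fold, 2 of the 11 variants were higher in FL and 2 in BM between the GFP+ samples, and 1 in FL and 4 in BM between the GFP- samples. H3f3b, which encodes the replacement H3 variant, was the one higher in BM in both, at 353.9, 315.8, 921.8 and 927.9 FPKM. The linker variant gene H1f0 was higher in both FL samples, at 250.9, 192.3, 66.6 and 114.3 FPKM, the reverse of Hist1h1c. H2afx, the variant gene with the stem-loop pattern, was at 261.7, 187.7, 432.4 and 249.98 FPKM, and H2afz at 1361, 1076, 2265 and 1838 FPKM.

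Genes for histone mRNA transcription and processing (15 measured) summed to 676.6, 678.6, 649.5 and 540.0 FPKM, with 4 past 2-fold in favour of FL and 1 of BM between the GFP+ samples, and 2 and 0 between the GFP- samples. Slbp, which binds the stem-loop, was at 180.1, 173.6, 242.3 and 179.9 FPKM, higher in BM GFP+ than in the other samples, and Npat, a coactivator of histone gene transcription, was at 14.04, 8.32, 2.50 and 6.57 FPKM. Cstf2, a cleavage factor, was the one gene of this list higher in FL in both fractions, at 86.0, 149.3, 41.7 and 24.2 FPKM. The 14 histone chaperone genes summed to 2006, 1669, 1531 and 1760 FPKM, and none was past 2-fold in the same direction in both fractions.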

How the data were processed

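LSK-SLAM cells were sorted by flow cytometry and RNA was sequenced on HiSeq2000 from SMARTer libraries. Per the study's methods, the authors aligned the reads by Bowtie and TopHat and estimated FPKM by Cufflinks (version 2.2.1 in the submitters' processing notes), with Cuffquant correcting for fragment bias and reads of several positions and Cuffnorm applying its geometric normalization across the samples. Each deposited file lists FPKM for the same 23906 symbols and holds neither counts nor errors. The study's methods give the uniquely mapped reads of each library. The number of reads behind a single value is unknown, so its precision could not be computed. The methods name the older build NCBI37 and the processing notes mm10. The files hold no coordinates, so positions and stop codons were taken from GENCODE vM1 (NCBIM37), in which all 64 members matched 1 gene by symbol, and promoters from RefSeq (GRCm38.p6), and the builds were not mixed. Protein sequences were not used here.

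A gene was counted as past 2-fold where the higher FPKM was over 2 times the lower and at least 1. Ratios were taken as log2(FPKM + 1), a scale that understates changes of low genes. The same counts were made over all symbols and over the 12022 with a mean of at least 1 FPKM. limma 3.58.1 in R 4.3.3 (lmFit, eBayes with trend, Benjamini-Hochberg adjustment) was fitted on log2(FPKM + 1) of these 12022 genes with terms for GFP and tissue, which leaves 1 residual degree of freedom. Its p-values rest on tissues or fractions as the only repeats, and the GFP and tissue comparisons share samples. Other steps used Python 3.11.15 with pandas 2.3.3, and the code was tested on simulated data.

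The members and the gene lists were chosen with earlier results of these data known. Genes were named by rule: the 3 highest of each class by mean, those past 2-fold in the same direction in both tissues (GFP) or both fractions (tissue), every Hist2, Hist3 and Hist4 gene, and those at 0 throughout. Other named members (Hist1h1a, Hist1h2ac, Hist1h2an, the pair partners and the 5 genes of opposite direction) were chosen after their values were seen. Alternatives were thresholds of 1.5-fold and 4-fold, no minimum or a minimum of 5 FPKM, pseudocounts of 0.1 and 5, rescaling to equal FPKM totals or equal upper quartiles of genes above 0 in all samples, and limma without block, trend or filter.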

Additional observations from a re-analysis of the deposited data

Results flagged for a closer look

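For 5 clustered histone genes GFP+ and GFP- cells were more than 2-fold apart in opposite directions in the FL and the BM. With 1 sample per group, these differences between the tissues were not tested. Each value below is a difference, the BM ratio less the FL ratio, of log2(FPKM + 1) of GFP+ over GFP- cells.

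The H4 gene Hist4h4 gave 4.07, from a ratio of -2.12 in the FL (0 against 3.36 FPKM) and 1.95 in the BM (51.3 against 12.6 FPKM). The H2b gene Hist1h2bn gave 3.87, from -2.28 in the FL (0 against 3.86 FPKM) and 1.59 in the BM (14.3 against 4.09 FPKM). The H3 gene Hist1h3f gave 2.54, from -1.68 in the FL (0 against 2.2 FPKM) and 0.87 in the BM (3.82 against 1.64 FPKM). These 3 genes were thus listed at 0 in FL GFP+ cells and highest in BM GFP+ cells.

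The remaining genes, both H2b, had the opposite order. Hist1h2bl gave -3.75, from 2.49 in the FL (4.62 against 0 FPKM) and -1.26 in the BM (0 against 1.40 FPKM). Hist1h2bh gave -2.08, from 1.23 in the FL (5.38 against 1.72 FPKM) and -0.85 in the BM (0.928 against 2.47 FPKM). For 4 of the 5 genes at least 1 sample was at 0. Of all 23906 symbols, 409 were past 2-fold higher in GFP+ cells in the FL and lower in the BM, and 632 the reverse.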

How the results depend on the processing

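Of 114 recomputed values 84 moved little (counts by at most 1.5 times), among them the BM median of GFP+ over GFP-, which went from 0.26 to 0 at equal FPKM totals and so lost its direction. In both tissue comparisons more genes were higher in BM than in FL under every threshold, minimum and scaling tried. The summed FPKM of FL GFP+ over FL GFP- turned from 0.05 (log2) to -0.21 at equal FPKM totals and -0.17 at equal upper quartiles, so no direction holds for it. In that comparison the 15 genes higher in GFP+ became 7 at 4-fold, 7 with a minimum of 5 FPKM and 9 among members above 0 in all 4 samples, and the 8 higher in GFP- became 1 and 2 under the last pair of settings. In the BM the 17 higher in GFP+ became 27 at 1.5-fold, 7 at 4-fold, 10 with a minimum of 5 FPKM and 7 among members above 0 in all 4 samples. The 8 higher in BM GFP- became 4 at 4-fold, 13 with no minimum, 4 with a minimum of 5 FPKM and 4 among members above 0 throughout. Between FL GFP+ and BM GFP+ the 7 higher in FL became 3 with a minimum of 5 FPKM and 3 among members above 0 throughout, the 34 higher in BM became 19 among the latter, the log2 ratio of sums went from -1.45 to -0.82 at equal totals, and the median went from -0.96 to -1.70 over members with a mean of at least 1 FPKM. Between FL GFP- and BM GFP- the 1 higher in FL became 3 at 1.5-fold, 0 at 4-fold, 2 with no minimum, 0 with a minimum of 5 FPKM, 3 at equal totals and 2 at equal upper quartiles, and the 33 higher in BM became 14 at 4-fold, 20 with a minimum of 5 FPKM and 20 among members above 0 throughout. Stricter thresholds and smaller gene sets lower a count by construction, and for the other moves the cause was not tested. The tissue effect by limma fell from 1 gene, Hist1h1c, to 0 without the trend, where 18 members had an unadjusted p under 0.05. The setting with members above 0 in all 4 samples, and one without the 5 highest members, were chosen after seeing the data. With 1 sample per group no replicate numbers could pair samples, and limma used tissue or GFP fraction as its block. Without the block, histone genes with an adjusted p under 0.05 by limma again numbered 0 for GFP and 1 for tissue, while those among all genes tested went from 16 to 4 and from 313 to 164.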
